A study of Mus musculus with 14 samples.

Results

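The Agilent mouse expression array used in this study carries, beside probes for named genes, 15578 probes for long intergenic non-coding RNAs (lincRNAs) whose only name is a chromosome range with a strand, such as chr2:72818943-72826893 reverse. They were taken from 55681 non-control probes as those whose gene name is an autosomal range followed by F (forward) or R (reverse), leaving out 26 probes of an interval of chromosome 1 between 175.2 and 176.0 Mb. The 15578 probes stand for 4423 range strands in 3383 ranges, 1040 of which were probed on both strands, and overlapping ranges merge into 2121 loci. A range strand had a median of 3 probes and at most 10, and 660 had 1 probe. The median range length was 7451 bp, with quartiles of 794 and 21837.5 bp. The probes are 60 bases long and their coordinates are those of mm9 in the file, with 118 probes given no position. Another 647 probes described as lincRNA carry names of another form, 577 of them on chromosome X, and were not counted as range probes.

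Long intergenic non-coding RNAs are transcripts of genes that lie between protein-coding genes and encode no known protein. Many were mapped from chromatin marks of active transcription before their exons were known, so a range can be broader than the transcript and its strand can be unknown, which is why some ranges are tiled on both strands. Polycomb repressive complex 1, of which BMI1 (PCGF4) is a subunit, keeps genes silent through histone H2A ubiquitination and chromatin compaction, and in blood cells BMI1 is best known for holding down the Cdkn2a locus and the Hox clusters.

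The arrays measured total RNA of peritoneal B-1a cells, an innate-like B cell population of the body cavities, from 7 Bmi1 knockout (KO) and 7 wild-type (WT) samples of mice. Samples came from 2 sets of experiments, read here from the style of the sample titles, with 3 arrays of each genotype in set 1 and 4 in set 2. The sources used here give neither the knockout allele nor strain, age and sex, and do not say whether samples were pooled or came from separate animals. A p-value below therefore rests on the variation from sample to sample, part of which may be technical. In such bulk RNA, fewer cells that make a transcript and less of it per cell cannot be told apart.

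All levels are log2 signals relative to the 75th percentile of the same array, and every difference is KO minus WT on that scale. The share of all non-control probes well above background, the scanner software's call that a signal exceeds its local background, was 20.61% to 37.3% on 4 dim arrays, all KO (set 1 replicate 4 and set 2 replicates 1, 2 and 3), against 43.71% to 63.15% on the others. The median difference of all probes tested was 0.32, and it was -1.02 when arrays were scaled over probes above background on all 14 arrays, so each difference below, given unshifted, is to be read against those medians. Neither Bmi1 probe was lower in KO: the differences were 3.74 (SE 0.87, adjusted p = 0.176) and 1.09 (SE 0.90, adjusted p = 0.547), and since the deleted exons are not known here, these probes do not check the genotype labels. Genes held to be BMI1 targets are given with the ranges near them. All 8 B cell markers (among them Cd79a and Pax5) were above background on all 14 arrays, while none of 4 B-1a markers was. Cd5 was above background on 3 KO and 6 WT arrays (means -1.43 and -0.80), Spn on 5 and 7 (2.54 and 3.55), Zbtb32 on 5 and 6 (0.28 and 0.08), and Bhlhe41, a transcription factor gene of B-1a cells, on 4 and 7, with means of -0.23 in KO and 4.38 in WT. Of other peritoneal cells, 2 of 6 macrophage genes (Emr1 and Csf1r) and 2 of 6 T cell genes (Cd4 and Lat) were above background on all 14 arrays, and 0 of 5 mast cell, 0 of 5 neutrophil, 0 of 3 eosinophil and 0 of 3 erythroid genes were, with Ms4a2, S100a8, Ltf, Prg2 and Epx above it on no array. The summed macrophage level ran from 3.14 to 9.31 in KO and from 3.35 to 7.42 in WT, and the summed T cell level from 1.63 to 4.77 and from 1.44 to 3.05. The summed erythroid level varied most within genotypes, from -2.99 to 12.12 in KO and from -3.60 to 10.4 in WT, and the hemoglobin gene Hba-a1 was above background on 4 KO and 5 WT arrays (means 3.51 and 1.39). The sums ran from -0.18 to 3.99 and from 0.88 to 3.56 for mast cells, from -3.97 to 1.03 and from -3.52 to -0.68 for neutrophils, and from -4.17 to 0.63 and from -4.07 to -1.09 for eosinophils. The part of other cells, and of the B-1a markers that differ, in the results below was not tested.

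The sequences shown here carry the results, all read from the deposited array files and written 5′ to 3′ as the probe, with mm9 coordinates. The first set is the only range probe that passed the test and the nearest tested probe of the same range strand, both on the minus strand of chromosome 2, in lower case throughout because no part is singled out:
chr2:72819169-72819228, minus: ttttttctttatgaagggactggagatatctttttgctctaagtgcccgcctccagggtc
chr2:72819054-72819113, minus: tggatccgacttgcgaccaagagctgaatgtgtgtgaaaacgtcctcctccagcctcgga
The next pair, from chromosome 11, shows how a range was probed on both strands at the same place. Capitals mark the 46 bases by which the probes are reverse complements of each other:
chr11:119270282-119270341, plus: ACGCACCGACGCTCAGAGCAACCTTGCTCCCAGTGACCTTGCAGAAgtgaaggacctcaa
chr11:119270268-119270327, minus: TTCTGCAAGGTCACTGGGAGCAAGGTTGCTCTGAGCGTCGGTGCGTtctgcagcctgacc
The third set holds 2 end-to-end tiles of the plus strand of chromosome 19 whose differences between genotypes are unlike, -5.73 and -1.36, in lower case throughout:
chr19:53537235-53537294, plus: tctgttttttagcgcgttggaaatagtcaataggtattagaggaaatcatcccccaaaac
chr19:53537295-53537354, plus: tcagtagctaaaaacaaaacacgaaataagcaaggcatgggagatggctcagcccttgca
The last set is a window of 25 bases held by probes of 3 ranges and of the zinc finger gene Gm4944 on chromosome 17. It is shown because near-identical copies may be hard to tell apart by hybridization, which was not tested here. Capitals mark the 3 positions at which the windows differ:
chr17:22015250-22015274, minus: agttggAGccagGgttctaaagaga
chr17:22335494-22335518, minus: agttggAGccagTgttctaaagaga
chr17:22335494-22335518, minus (Gm4944 probe): agttggCAccagTgttctaaagaga
chr17:22422459-22422483, minus: agttggCAccagTgttctaaagaga
The files place the Gm4944 probe over the second window, although its letters are those of the window at chr17:22422459-22422483.

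Range probes were detected somewhat less often than the rest of the array. Of the 15578 probes, 7721 (49.6%) were well above background on at least 4 of 7 arrays of either genotype and entered the test, against 54.8% of the 40103 other probes. They cover 3206 range strands in 1648 loci. Only 1399 (8.98%, against 14.1% of other probes) were above background on all 14 arrays, and 2513 (16.1%, against 17.1%) on none. At the edge of the rule, 1222 range probes had exactly 4 arrays above background in the genotype with more, and 1281 had 3. Of the tested range probes, 4914 passed through both genotypes, 2617 through WT arrays alone and 190 through KO arrays alone. The 4 dim arrays are all KO, so that imbalance moves with signal on the array. Missing values left 25 tested range probes without a value on 1 or more arrays.

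On single KO arrays 14.91% to 53.68% of range probes were above background (median 29.47%), and on WT arrays 35.9% to 63.2% (median 47.43%). The genotypes overlap, with 3 KO arrays inside the WT range and the 4 dim ones below it. The KO mean was 36.27% ± 15.48 (SD, n = 7) against a WT mean of 49.04% ± 9.359 (SD, n = 7), which differ by -12.77 percentage points (exact permutation of genotype within sets, two-sided p = 0.07429, 1400 arrangements). The other probes of the same arrays differed by -11.25 points (exact permutation p = 0.04429). The gap between range probes and other probes differed by -1.525 points between genotypes (exact permutation p = 0.3857), so range probes were not detectably more affected than the rest. Within sets the range probes differed by -7.506 points in set 1 (exact permutation p = 0.5, where 3 against 3 arrays cannot go below 0.1) and by -16.72 points in set 2 (exact permutation p = 0.1143). Within slide 2, which holds 4 KO and 2 WT arrays, it was -17.72 points (exact permutation p = 0.2667, smallest possible 0.06667).

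**Figure D1:**
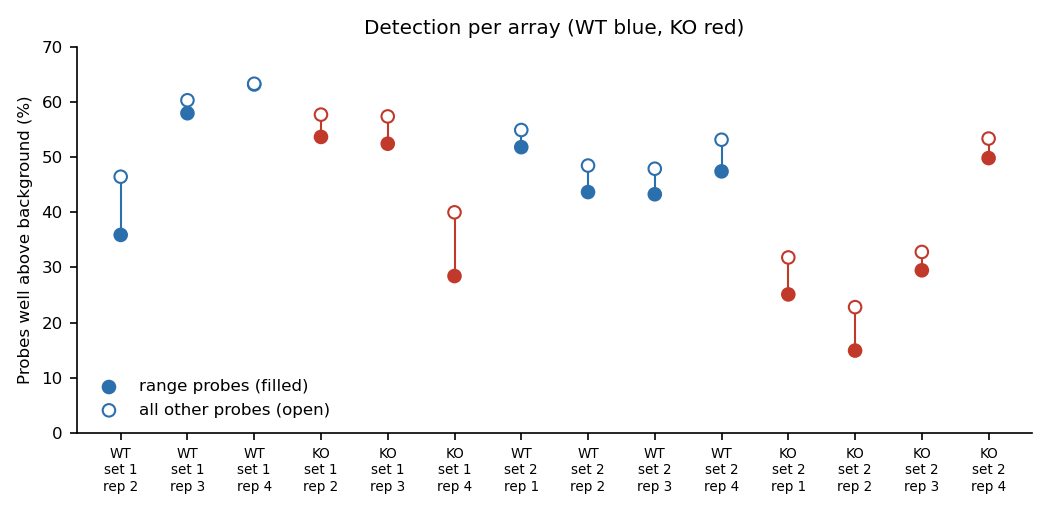
Share of probes well above background (percent, vertical axis) on each of the 14 arrays, filled for range probes and open for all other non-control probes, WT in blue and KO in red. Range probes lie below the other probes on every array, and the 4 lowest arrays, at 14.91% to 29.47% of range probes, are KO.

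Genotype made little difference to single range probes at the threshold of the test. By limma over all 29679 probes tested, with the set as a term and Benjamini-Hochberg adjustment, 1 of 7721 range probes fell in KO at an adjusted p under 0.05, when 0.027% of all probes did, and 0 rose, when 0.00337% of all probes did. At an unadjusted p under 0.05, 408 range probes (5.28%) were higher, against 8.18% of all probes tested, and 489 (6.33%) were lower, against 5.38%. Every KO array lay above every WT array for 7 range probes (0.0907%, against 0.128% of all probes tested), and every KO array below every WT array for 7 (0.0907%, against 0.131%). The median difference was 0.14 for range probes (quartiles -0.77 and 0.79) and 0.39 for the other probes, with median standard errors of 0.80 for range probes and 0.82 for all. Among probes above background on all 14 arrays the medians were 0.85 for range probes and 1.07 for all probes. With quantile normalization the medians of tested probes were -0.21 and -0.16. Per array, the median level of tested range probes minus that of all tested probes differed by -0.06 between genotypes (exact permutation p = 0.7186). By set it differed by -0.39 in set 1 (exact permutation p = 0.4) and by 0.18 in set 2 (exact permutation p = 0.05714). A lower median of range probes was thus not shown at the level of arrays.

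**Figure D2:**
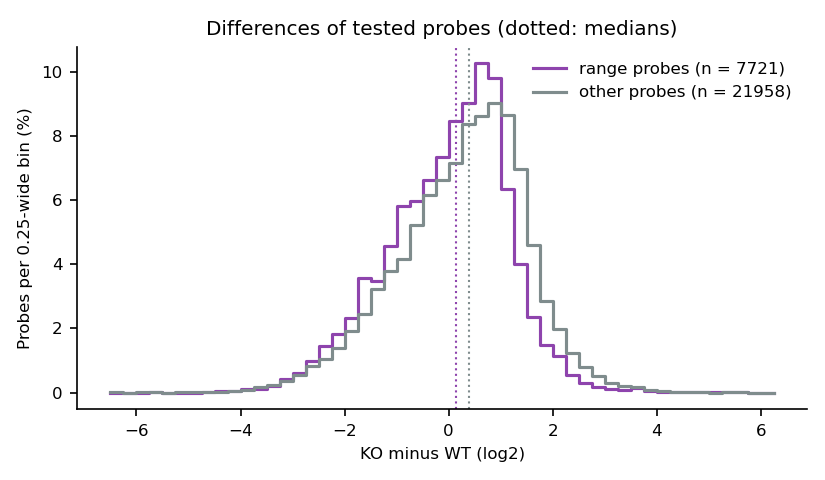
Distribution of KO minus WT differences (log2, horizontal axis) as the percent of probes per bin of 0.25 log2 units, for 7721 tested range probes (purple) and 21958 other tested probes (grey). Dotted lines mark the medians, 0.14 and 0.39, and the range probes hold fewer values above 1.

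The range probe that fell lies at chr2:72819169-72819228 on the reverse strand of chr2:72818943-72826893. This range spans array probes for Sp3os (1700011J10Rik), the antisense transcript next to the transcription factor gene Sp3, which lie on the other strand. Its level was -6.24, -5.03 and -1.47 (lowest, median, highest) in KO and -2.16, 0.36 and 1.08 in WT. On 6 of 7 KO arrays it was below every WT array, and it was well above background on 0 KO and 7 WT arrays. The difference was -4.24 (SE 0.68, adjusted p = 0.0376), or -4.56 relative to all probes. Because the KO signal was not above background, that level is only a bound: against the lowest signal well above background on each KO array, the probe was at least 5.54-fold lower in KO.

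The 3 other KO arrays lay at -6.24 to -5.30 and the 4 dim ones at -5.03 to -1.47. Without the dim arrays the difference was -5.58 (adjusted p = 0.0216). The 75th percentile itself was 7.35 to 8.22 (log2) on the 3 other KO arrays and 3.63 to 7.00 on the dim ones. With no KO signal above background, a higher percentile by itself gives a lower level. This order therefore says nothing about the part of the dim arrays, which was not tested. The 5 other tested probes of this range strand differed by -1.11 to 2.06, and the nearest, printed above, by -0.76 (SE 0.59, adjusted p = 0.527). An Sp3os probe inside the range differed by 1.70 (adjusted p = 0.368). The result thus rests on 1 probe, and neither neighbouring tiles nor the opposite transcript passed the test. It lost its call without any of 11 of the 14 arrays (leave-one-out adjusted p from 0.0125 to 0.142) and with normexp background correction (-1.32, adjusted p = 0.204). It was not called with slide as a block (-4.25, adjusted p = 0.123), without the set term (adjusted p = 0.114) or with the replicate block (adjusted p = 0.130). Within set 1 it differed by -5.13 (adjusted p = 0.227) and within set 2 by -3.58 (adjusted p = 0.490). Without KO set 1 replicate 3, 13 range probes passed lower, and without KO set 2 replicate 4, 9 did. The share of all probes called in those fits is not given here, so these counts are not particular to range probes.

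Only 2 other range probes were above background on 0 KO and 7 WT arrays, and none showed the reverse. With the called probe this makes 3 of 15578 range probes, a share much like the 8 of 40103 other probes with that pattern. The single probe of chr2:48873778-48974304 forward was at least 1.75-fold lower in KO (fitted difference -1.47, SE 0.71, adjusted p = 0.370). That range also holds a probe named Mbd5, a methyl-CpG-binding domain gene, which differed by -0.21 (adjusted p = 0.911). A probe of chr4:101010948-101032148 forward was at least 2.18-fold lower (-2.23, SE 0.87, adjusted p = 0.341), while the 7 other tested probes of that range strand differed by -0.88 to 0.85.

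Probes on both strands lay in the same direction in chr11:119250824-119286324, which lies between array probes of Slc26a11 and of Rnf213. Slc26a11 is a sulfate and anion transporter gene, and Rnf213 encodes a very large E3 ubiquitin ligase with AAA+ domains. Only probe positions were used, so whether the range overlaps either gene is not known here. All 6 probes, 3 on each strand, lie between 119270064 and 119270341, and all 6 were lower in KO, by -3.59 to -2.06. The reverse probe starting at 119270064 had levels of -5.40, -2.36 and -1.20 in KO and 0.15, 0.42 and 2.18 in WT. The genotypes did not overlap, and the difference was -3.59 (SE 0.61, adjusted p = 0.0566). This probe was above background on 3 KO and 7 WT arrays, so it entered the test through WT alone. The forward probe starting at 119270100 had levels of -2.98, -1.49 and -1.13 in KO and 0.50, 1.05 and 2.70 in WT, again without overlap (difference -3.25, SE 0.58, adjusted p = 0.0773). The overlapping pair printed above differed by -2.08 (SE 0.55) on the forward strand and by -2.34 (SE 0.57) on the reverse strand. Without the dim arrays the 6 differences were -3.56 to -1.99, so this range kept its size on the brighter KO arrays.

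Both leading chromosome 11 probes missed the threshold and passed it under some other processing. With normexp the adjusted p-values were 0.0201 and 0.0436, and scaled over probes above background on all 14 arrays they were 0.0294 and 0.0351, although that scaling also lowers the median of all probes. With quantile normalization they were 0.0575 and 0.0477, with slide as a block 0.123 and 0.237, and without the dim arrays 0.502 and 0.521. Relative to all probes, the differences were -3.91 and -3.57. Of the Rnf213 probes nearby, the one at 119291535 differed by -3.35 (adjusted p = 0.231) and the one at 119348605 by -0.33 (adjusted p = 0.892).

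Other ranges with lower signal in KO did not pass the test. On chromosome 12, near Zfp36l1, which encodes an RNA-binding protein that promotes decay of AU-rich messages, both probes of chr12:81221532-81232030 forward were lower. The first had levels of -3.66, -2.06 and 0.13 in KO and 1.05, 1.49 and 3.56 in WT, without overlap (difference -3.71, SE 0.70, adjusted p = 0.0963). The second differed by -3.81 (SE 0.92, adjusted p = 0.182), and Zfp36l1 itself by 1.48 (adjusted p = 0.362). The 2 range probes were above background on 3 and 2 KO arrays and on 7 WT arrays each. Both thus entered the test through WT alone and set WT signal against KO values mostly at background. On chromosome 6, 5 tested probes of chr6:112552041-112560067 reverse differed by -3.30 to -2.44, the smallest adjusted p being 0.176. One of them, starting at 112555774, had levels of -4.97, -2.19 and -0.94 in KO and -0.80, 0.64 and 1.94 in WT, again without overlap. The nearest coding gene with a probe there, Rad18, an E3 ligase of DNA damage tolerance, differed by 0.94 (adjusted p = 0.434).

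The forward strand of chr19:53517903-53540753 held the most negative difference of all these ranges, beside probes that differed little. Of its 10 probes, 3 were lower at an unadjusted p under 0.05. Its 10 probes ran from -5.73 to 0.75. The tile starting at 53537235 had levels of -6.52, -3.16 and 2.78 in KO and 1.67, 3.48 and 4.42 in WT, so that 6 of 7 KO arrays lay below all WT arrays (difference -5.73, SE 1.07, adjusted p = 0.0938). It was above background on 2 KO and 7 WT arrays, so it entered the test through WT alone. The next tile, printed above, differed by -1.36 (SE 0.72), and the 5 probes furthest to the left differed by -0.50 to 0.75. Probes for 5830416P10Rik (now Mirt1) lie in this range on the opposite strand. That at 53526151 differed by -0.59 (adjusted p = 0.729) and that at 53518504 by -0.55 (adjusted p = 0.803). A further Mirt1 probe at 53517751, just left of the range, differed by -2.91 (SE 1.12, adjusted p = 0.334). It was above background on 3 KO and 7 WT arrays.

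In 3 further ranges every tested probe was lower at an unadjusted p under 0.05. All 3 probes of chr9:121207045-121269020 forward, with Ulk4 as the nearest coding gene, differed by -3.37 to -3.14, and by -1.08 to -0.60 without the dim arrays. The 3 probes of chr3:10081893-10094218 forward differed by -3.09 to -2.50, and by -0.57 to -0.29 without them. For the probe starting at 121211173 the dim KO arrays lay at -5.13 to -1.51 and the other KO arrays at -1.21 to 3.21, against 0.37 to 4.81 in WT. The 3 probes of chr16:43623175-43624069 forward, near Zbtb20, a zinc finger repressor gene, differed by -2.82 to -2.05, and by -2.40 to -1.32 without the dim arrays. There the dim arrays held both the lowest and the highest KO values: for the probe starting at 43624010 they lay at -3.28 to 0.99 and the other KO arrays at -3.05 to -1.84, against -1.39 to 1.21 in WT.

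Among ranges with higher signal in KO, the largest differences came from 3 reverse ranges in a cluster of zinc finger genes on chromosome 17. The 3 probes of chr17:22335458-22466521 differed by 4.58 to 5.52, 2 of 3 probes of chr17:22013350-22095775 by 4.31 and 5.36, and the 3 tested of 5 probes of chr17:22420025-22457650 by 3.72 to 4.35. The probe starting at 22335579 had levels of -1.39, 1.29 and 8.48 in KO and -5.24, -2.71 and -0.86 in WT (difference 5.52, SE 1.33, adjusted p = 0.182). Its 4 dim KO arrays lay at 1.29 to 8.48, and the 3 other KO arrays at -1.39 to -0.04. Without the dim arrays the difference was 2.25, and by set it was 1.85 in set 1 and 8.28 in set 2. A probe of Gm4944 (now Zfp994), a zinc finger gene inside the first range on the same strand, differed by 3.37 (adjusted p = 0.229), while its other probe, starting at 22336724, differed by -1.44 (adjusted p = 0.416). The shared window printed above recurs in all 3 ranges, with 3 positions that differ. Whether the probes that hold it also detect the other copies was not tested.

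The forward strand of chr6:54591416-54597566 also had higher signal in KO. It contains a probe of Plekha8, which encodes a lipid transfer protein of the Golgi, so that range is not wholly intergenic on this array. All 5 probes differed by 2.09 to 3.68, and by 2.27 to 4.05 without the dim arrays. They were above background on 4 or 5 KO arrays but on 1, 2, 2, 3 and 5 WT arrays, so 4 of the 5 entered the test through KO alone and are set against WT signals mostly at background. The probe starting at 54595413 had levels of -3.63, -1.70 and 3.76 in KO and -6.18, -5.28 and -1.24 in WT, with 3 KO arrays above all WT arrays (difference 3.68, SE 0.99, adjusted p = 0.216). The Plekha8 probe starting at 54595274 on the same strand differed by 0.68 (SE 1.0, adjusted p = 0.755).

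Differences of similar size, not past the threshold, were seen in 2 more ranges. On chr5:15176325-15223375 reverse, within a repeated family of Speer genes known from testis, the 2 tested probes differed by 3.60 (SE 0.90, adjusted p = 0.197) and 2.93. They were above background on 4 KO arrays each and on 1 and 2 WT arrays, so both entered the test through KO alone. A probe of Speer7-ps1 on the other strand differed by 3.24 (adjusted p = 0.279). On chr4:116791819-116798263 reverse the tested probes differed by 4.09 (SE 1.03, adjusted p = 0.198) and 3.94, above background on 5 and 4 KO arrays and on 1 and 2 WT arrays, and 2 Btbd19 probes in the range by 2.89 and 0.04.

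Brighter ranges gave smaller differences that moved with the dim arrays. Both probes of chr6:4841700-4847400 reverse were above background on all 14 arrays. The probe starting at 4843656 had levels of 5.81, 7.72 and 9.96 in KO and 4.99, 5.20 and 6.67 in WT, and differed by 2.03 (SE 0.68, adjusted p = 0.303). The dim KO arrays lay at 7.72 to 9.96, the other KO arrays at 5.81 to 6.31, and without the dim ones the difference was 0.52. The 2 probes of chr18:6144775-6202232 forward, 283 bp from a probe of the kinesin heavy chain gene Kif5b, differed by 1.83 and 1.97, and by 0.62 and 0.58 without the dim arrays. The single probe of chr1:71730016-71740391 reverse kept more of its difference, with levels of -0.21, 1.44 and 3.30 in KO and -2.29, -0.59 and -0.17 in WT (2.38, SE 0.62, adjusted p = 0.211, and 2.02 without the dim arrays). The 5 probes of chr4:146507925-146532650 reverse differed by 0.39 to 2.22, and the 5 of chr12:81719382-81731865 forward, near Erh, by -0.01 to 3.53.

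**Figure D3:**
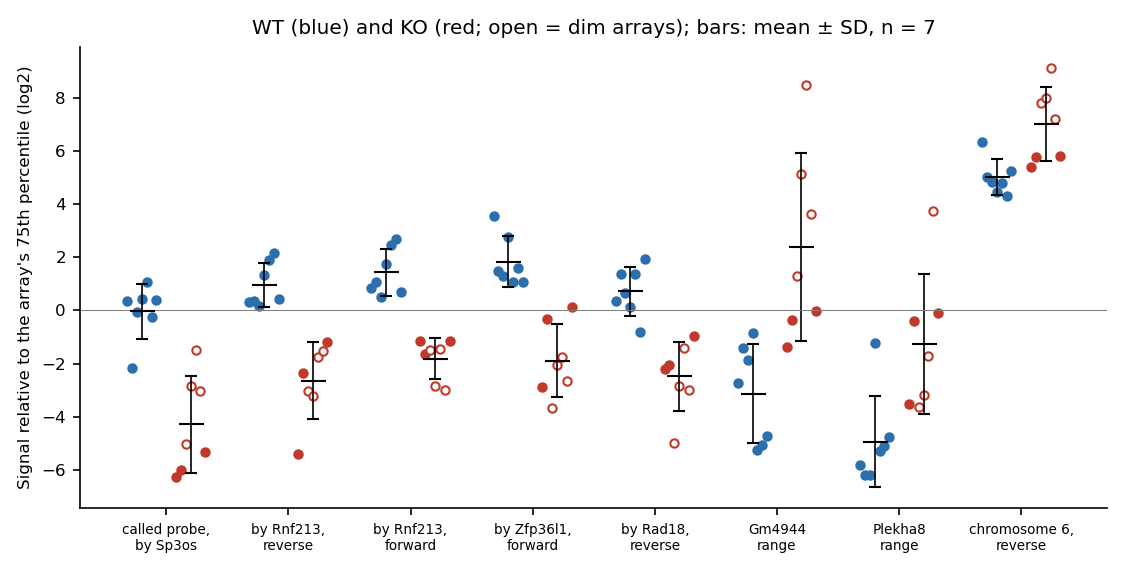
Log2 signal relative to the array's 75th percentile (vertical axis) for the leading probe of 8 range strands, WT arrays in blue and KO arrays in red, with the 4 dim KO arrays open, and bars for mean ± SD (n = 7). The probe by Sp3os, above background on no KO array, is lowest on the 3 brighter KO arrays. For the Gm4944 range and the reverse range of chromosome 6 the dim KO arrays are the highest.

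The 4 range strands with most probes above background on all 14 arrays include the strand opposite Neat1 and Malat1, nuclear RNAs of paraspeckles and of nuclear speckles. Their 10 probes on chr19:5771425-5848475 forward differed by -2.33 to 1.38, with 9 of 10 lower, and none passed. The Neat1 probe of the array had levels of 6.07, 8.07 and 10.98 in KO and 6.02, 6.42 and 6.93 in WT (difference 1.46, SE 0.68, adjusted p = 0.368, and 0.04 without the dim arrays), and Malat1 differed by 0.50 (adjusted p = 0.773). Probes named NEAT2, another name of Malat1, did not share a direction: 1 differed by 0.59 (adjusted p = 0.716), 1 by -1.91 (SE 1.28, adjusted p = 0.460) and 1 by -1.53 (SE 1.15, adjusted p = 0.509). The first forward probe, starting at 5842428, differed by 1.38 (SE 0.66, adjusted p = 0.370), and the other 9, from 5843984 onward, by -2.33 to -0.40. By set those 9 differed by -4.11 to -2.12 in set 1, while in set 2 the one at -2.33 differed by -1.45 and the other 8 by 0.23 to 1.71. The interaction contrast of limma passed for none of them (adjusted p from 0.863 to 0.878).

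The other bright range strands differed upward or little. The 8 probes of chr2:151992806-152025456 forward differed by -0.32 to 1.58, and 5 of them had KO medians of 6.81 to 10.05 against WT medians of 5.51 to 8.29. For those 5 the differences were 1.35 to 1.58, and -0.08 to 0.40 without the dim arrays. The 8 tested probes of chr6:116092274-116144199 reverse, near Tmcc1, differed by -0.11 to 2.06. The 10 probes of chr17:26911397-26917047 forward, near Crebrf, which encodes a regulator of CREB3 proteins, differed by 0.15 to 2.38, 6 of them at an unadjusted p under 0.05 and none after adjustment, and by 0.47 to 1.48 without the dim arrays. On the reverse strand of that range 4 probes were higher and 3 lower at that p, from -3.05 to 2.28. All 3 of the lower ones are among 5 probes without a position, so their place in the range is not known here.

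Tiling on both strands showed how much of a difference was shared by place. Pairs of tested probes of 1 range that lie on opposite strands and overlap by at least 15 bases (791 pairs in 404 ranges) had differences that correlated at r = 0.834, fell on the same side of the all-probe median in 82.9% and lay a median of 0.33 log2 units apart. Opposite-strand pairs up to 1 kb apart correlated at 0.517 (2412 pairs), and those 1 to 10 kb apart at 0.062 (3466 pairs). On the same strand, pairs up to 100 bp apart correlated at 0.762 (3336 pairs, median gap 0.50), pairs 100 bp to 1 kb apart at 0.459 (3414 pairs) and pairs 1 to 10 kb apart at 0.175 (2340 pairs). Pairs over 10 kb apart correlated at 0.347 on the same strand (1060 pairs, 69.4% on the same side) and at 0.182 on opposite strands (1839 pairs, 65.4%), above those 1 to 10 kb apart. These values describe pairs that share the same 14 arrays, and many share a probe, so they carry no p. Both strands had a tested probe in 761 of the 1040 ranges tiled on both, a single strand in 194 and neither in 85.

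**Figure D4:**
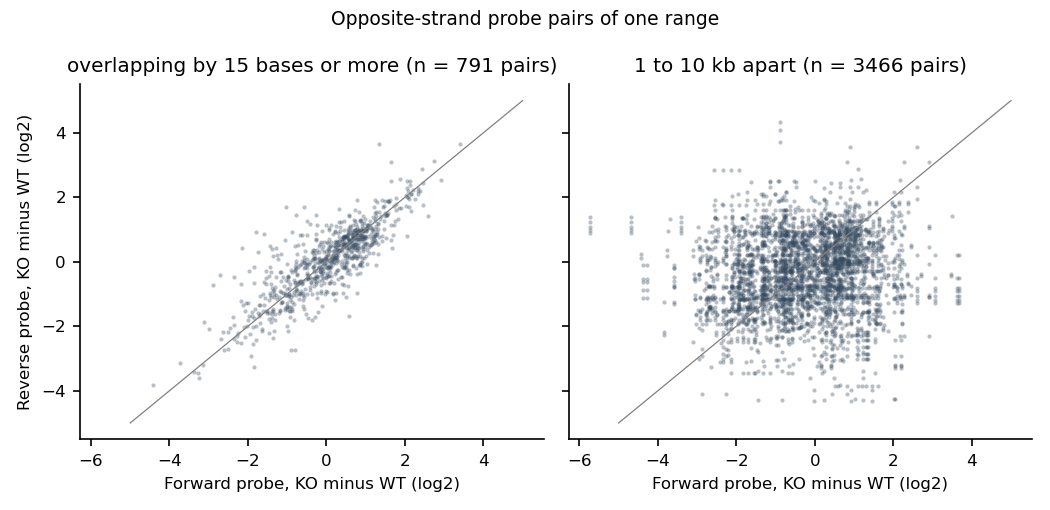
KO minus WT difference (log2) of the reverse probe against that of the forward probe, for 791 opposite-strand pairs overlapping by 15 bases or more (left) and 3466 pairs 1 to 10 kb apart (right), with the line of equality. Overlapping pairs lie along the line (r = 0.834) and distant pairs do not (r = 0.062).

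Agreement within a range strand was accordingly partial. Of 1901 range strands with 2 or more tested probes, 656 had all probes above 0, 416 all below 0 and 829 probes of both signs. Set against the all-probe median of 0.32 the order turned, with 432 wholly above it and 600 wholly below, and the median spread of differences within a range strand was 1.05. Every tested probe was higher at an unadjusted p under 0.05 in 24 range strands (19 loci) and lower in 22 (20 loci). Without the 4 dim arrays these counts were 6 and 13. They were 2 and 146 with the scaling over probes above background on all 14 arrays, so the balance of directions follows the scaling.

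Ranges tiled with 10 probes a strand showed where along a locus the differences lay. In chr12:81217572-81233910, which contains the Zfp36l1-side range described above, the reverse strand differed by -1.32 to -0.09 and the forward strand by -3.59 to 0.67. Of its forward probes, 2 were lower at an unadjusted p under 0.05 and none passed adjustment. In chr14:65431652-65437902, all 10 reverse probes differed by -3.45 to -0.91 and the forward ones by -2.14 to 1.53. A probe of the homeobox gene Hmbox1, starting at 65431778, lies inside this range on the reverse strand. It differed by -1.53 (adjusted p = 0.463), so the range is not wholly intergenic on this array. In chr16:43623581-43642715, near Zbtb20, all 10 probes of each strand were below 0, and so below the all-probe median, from -3.06 to -0.30 forward and from -2.0 to -0.51 reverse, while without the dim arrays 1 forward probe was above 0.

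**Figure D5:**
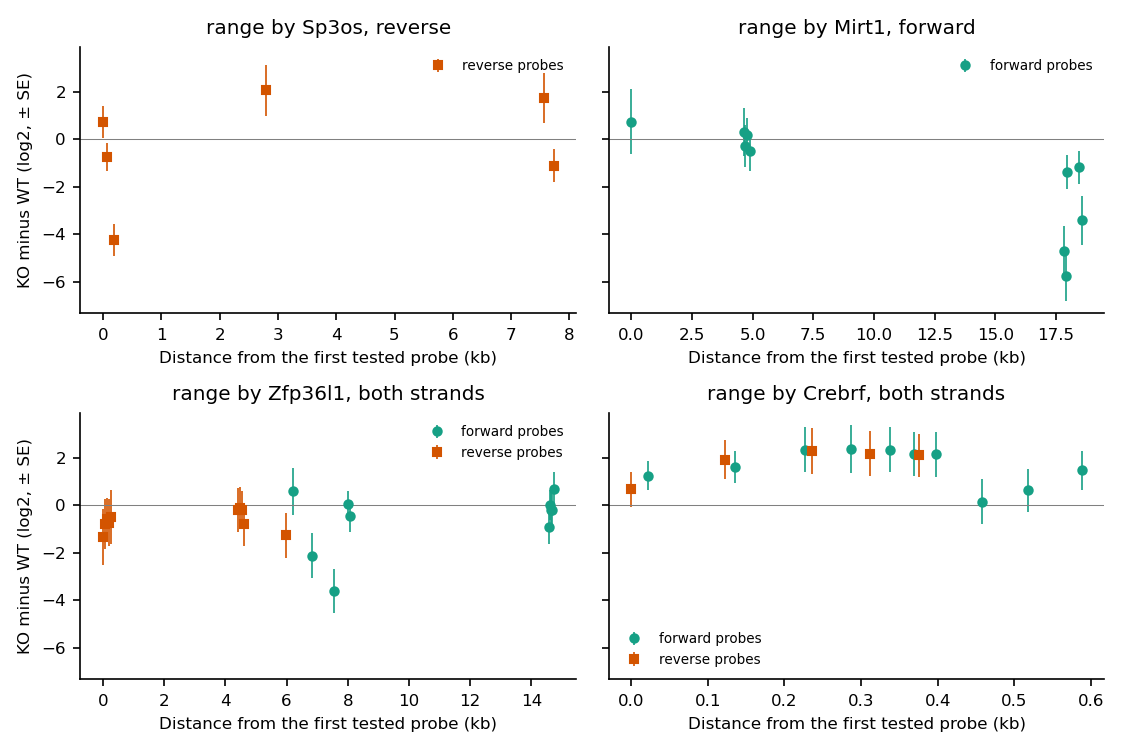
KO minus WT difference (log2, ± SE) of each tested probe with a position, by distance in kb from the first tested probe, in 4 ranges, with forward probes as circles and reverse probes as squares. The range by Sp3os shows 1 low probe at -4.24 beside 5 at -1.11 to 2.06, the range by Mirt1 shows its low probes at the far end, and by Crebrf the strands follow the same course where both have probes.

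The intergenic label did not hold for every range. As counted here, a probe of a coding gene lay inside 137 range strands on the same strand. It lay inside 105 more on the opposite strand alone, leaving 4181 with none counted. This count missed some gene probes: those named Hmbox1, Btbd19 and Mbd5 lie on the same strand inside ranges counted as having none. The classes compared below are therefore incomplete. The tested shares were 70.7% of 457 probes, 74.7% of 505 and 48.0% of 14616, and the median differences 0.10, -0.27 and 0.16. Where the gene probe lay inside on the same strand (90 range strands with both tested), the median of the range and the gene lay on the same side of the all-probe median in 70% (r = 0.351), and inside on the opposite strand (84) in 66.7% (r = 0.408). For a nearest gene probe within 5 kb outside the range the share was 48.1% on the same strand (243 range strands, r = -0.035) and 52.7% on the opposite strand (205, r = 0.126). A gene just outside a range thus lay on the same side about as often as not.

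By sequence, range probes were richer in G and C than other probes, with a median of 45% against 41.7%. The motif AATAAA, the canonical polyadenylation signal, was present on the probe strand, the only strand searched, in 3.90% of range probes and 12.5% of others. Detection followed base composition: 26.7% of range probes under 35% GC were tested, rising to 72.1% at 55% GC or more. Their median difference was 0.13 in the lowest class, -0.24 between 35% and 40%, and 0.44 in the highest. The other probes had 0.71, 0.38 and 0.40 in these classes, and their tested share rose from 29.5% to 72.3%. A run of 30 bases shared with a probe over 1 kb away was found in 229 range probes, and the 130 tested pairs of this kind lay a median of 0.19 apart, closer than pairs that overlap on opposite strands.

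Ranges near the genes best known as BMI1 targets were mostly dim. The tested probes near Hoxb9 were brighter, with WT medians of 1.79 and 2.87. Within 200 kb of a probe of a Hox gene, Cdkn2a or Bmi1 there were 13 range strands with a tested probe, and the nearest lay in Hox clusters. Tested probes differed by -0.93 and -1.51 near Hoxb9, 1.09 near Hoxb5, 0.59 near Hoxb4 and 0.37 to 1.07 near Hoxc4, and none of these reached an unadjusted p under 0.05. The nearest Hoxb4 probe was too dim to be tested, and the nearest Hoxb5 probe differed by 1.01 (adjusted p = 0.578). The Hoxc9 probe had levels of 1.23, 3.94 and 8.68 in KO and -5.49, -2.15 and -0.29 in WT, without overlap (6.98, SE 1.08, adjusted p = 0.0302, and 5.82, adjusted p = 0.162, without the dim arrays). For Cdkn2a, 1 probe was above background on 3 KO and 0 WT arrays. Its levels were -6.29, -3.0 and 5.66 in KO and -6.14, -4.9 and -3.39 in WT. Most KO arrays did not detect it, so no fold is given. The other probe was above background on 3 KO arrays and 1 WT array, so neither was tested.

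Dependence of the difference on the set was not detected at the threshold. By the limma interaction contrast 0 range probes passed an adjusted p of 0.05, when 0% of all probes did, and 479 (6.20%) had an unadjusted p under 0.05, against 5.08% of the other probes. The smallest p-values belonged to a probe of chr13:70745306-70837331 forward, near Ice1, with -3.78 in set 1 and 4.28 in set 2 (difference of differences 8.06, SE 1.5, adjusted p = 0.863), and to a probe of chr15:96091428-96115684 forward, near Arid2, a subunit gene of the PBAF remodeller, with -4.47 and 1.87 (6.33, SE 1.16, adjusted p = 0.863). The 8 other tested probes of the first range strand differed by -3.20 to 0.43 over both sets, with 5 lower at an unadjusted p under 0.05.

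Long non-coding RNAs that carry gene names were also measured. Of 46 listed genes, 32 had probes and 22 a tested one, and by limma 0 were called in either direction. Taking the brightest probe of each, 3 were higher at an unadjusted p under 0.05 and 0 lower, against 8.18% and 5.38% of all probes tested, with a median difference of 0.46 against 0.32 for all probes. These were Neat1, Snhg5, the host gene of small nucleolar RNAs (1.38, SE 0.62, adjusted p = 0.367), and the imprinted transcript Peg13 (3.94, SE 1.35, adjusted p = 0.309). The growth-arrest transcript Gas5 differed by 0.34 (SE 0.83) and Pvt1, next to Myc, by 0.92 (SE 0.53), neither past the threshold.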

How the data were processed

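Each array's deposited file holds single-colour Cy3 intensity values per spot, made by the authors' scanner with Agilent Feature Extraction 10.7.3.1 (also named in the submitters' processing notes) and mm9 probe positions, per the file headers. The labelling followed a company protocol that is not disclosed, per the labels' protocols. The background call per spot (gIsWellAboveBG, 0 or 1) is treated as a score, as deposited per the file headers. A deposited table of log2 values ranked each array's probes as the scanner signals did and had 1 median for all arrays (3.95); its normalization is not stated, and it served as an alternative.

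The processed signal was put on the log2 scale, averaged over spots of a probe after outlier spots were left out, and set against the array's 75th percentile. Probes above background on 4 or more of 7 arrays of either genotype entered limma 3.58.1 (R 4.3.3) with set as a term, Benjamini-Hochberg adjustment over all 29679 probes and a threshold of 0.05. The fit was tested on simulated data. Slide 1 holds set 1, slide 2 holds 4 KO and 2 WT arrays and slide 3 holds 2 WT arrays. Replicate numbers did not pair samples: same-numbered arrays correlated at -0.216 to 0.190. The array number limits the precision.

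The members and lists were chosen with earlier results of these data known. Named ranges were those called; those with every tested probe on 1 side at an unadjusted p under 0.05, up to 6 a direction; the smallest p-values up to 6 a direction; the brightest 4; those within 200 kb of a Hox, Cdkn2a or Bmi1 probe, up to 8; the 4 with most tested probes on both strands; 2 for dependence on set; and up to 3 a direction above background in 1 genotype alone, each with the nearest gene probe. Of 27985 probes with a RefSeq accession, 27491 were given current symbols from RefSeq (GRCm38.p6, names only). Alternatives changed scaling, normalization, background correction, batch terms, filters and arrays. A few items are not reported here.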

Additional observations from a re-analysis of the deposited data

Results flagged for a closer look

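In 4 of 42 groups of 7 arrays tested, 1 array stood apart from the other 6 by Dixon's ratio of the gap to the whole range, which chance alone does in about 1 of 20 groups. All 4 are WT arrays, each in the leading probe of a range strand. WT set 1 replicate 3 was lowest in the called probe of chr2:72818943-72826893 reverse, at -2.16 against -0.23 to 1.08 (ratio 0.594). WT set 2 replicate 2 was lowest in chr1:71730016-71740391 reverse, at -2.29 against -1.07 to -0.17 (0.578). WT set 1 replicate 4 was highest in chr5:15176325-15223375 reverse, at -0.83 against -6.24 to -4.73 (0.721). WT set 2 replicate 1 was highest in chr6:54591416-54597566 forward, at -1.24 against -6.18 to -4.75 (0.711).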

How the results depend on the processing

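The count of range probes lower in KO at an adjusted p under 0.05 was 1, and it was 31 with scaling over probes above background on all 14 arrays, 7 with quantile normalization, 7 in the deposited table and 3 with normexp background correction. It was 0 with slide as a block, without the set term, with the replicate block, for probes above background on all 14 arrays, with 1 probe per name, and within set 1, set 2 or slide 2. Leaving out each array in turn gave 0 to 13. No range probe was higher at that threshold under any of these settings by limma. The share of all probes called under each alternative is not given here, so these counts are not a result about range probes. The scaling that gave 31 also moved the median of all probes to -1.02.

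Range strands with every tested probe lower at an unadjusted p under 0.05 numbered 22, against 146 with that scaling, 45 with quantile normalization, 45 in the deposited table, 0 for probes above background on all 14 arrays, 41 within set 1, 11 within set 2 and 8 within slide 2, and 13 to 32 leaving out each array. Those with every probe higher numbered 24, against 2 with that scaling, 12 with slide as a block, 14 with the replicate block, 38 for probes above background on all 14 arrays, 6 within set 1 and 5 within slide 2, and 13 to 58 leaving out each array. Without the 4 dim KO arrays, an alternative chosen after seeing the data, the counts were 13 lower and 6 higher, and 10 lower and 6 higher with the other scaling as well. With 1 probe per name no agreement can be counted. The replicate block was fitted although the numbers do not pair the samples, and the adjusted p of the called probe was then 0.130.

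For the leading probes of 20 named range strands, 552 values under alternatives kept their direction, of which 512 stayed on their side of the threshold, 22 passed it newly and 18 no longer did. All 18 belong to the 1 called probe, the chromosome 2 probe by Sp3os, the only one that had a call to lose. The leading probes were picked by smallest p from these same arrays, some also for the same sign in both sets. Many alternatives refit nearly the same arrays. That directions were kept is therefore no further evidence for the differences. The cause of these changes was not tested. Range probes near background limit what can be seen, since 2513 of them were above it on no array.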
